A study of Rattus norvegicus with 10 samples.

Results

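The claudins of tubular tight junctions were followed in RNA-seq of renal cortex from PCK rats, which develop cystic kidneys of the autosomal recessive kind. The 10 members are *Cldn1*, *Cldn2*, *Cldn3*, *Cldn4*, *Cldn5*, *Cldn7*, *Cldn8*, *Cldn10*, *Cldn12* and *Cldn15*. They were taken by symbol from a table of 32545 genes, in which 10 of the 10 symbols were found, each on 1 row. The study sequenced 5 male and 5 female PCK/CrljCrl-Pkhd1pck/Crl rats, with 1 library per rat, and the question here is whether claudin transcripts differ between the sexes. Both groups carry the *Pkhd1* mutation and no wild-type rat was sequenced, so nothing below compares cystic with healthy kidney. No treatment is named for either sex. The rats were littermates from separate litters, and the litter of each rat did not enter any test. Their age is on record both as 10 to 12 weeks and, among the sample labels, as 12 to 14 weeks, and those labels name the tissue only as kidney.

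Claudins are membrane proteins of the tight junction, the seal between neighbouring epithelial cells. Some form pores that let particular ions and water pass between cells, others tighten the barrier, and each stretch of the nephron carries its own combination. *Cldn2* gives the proximal tubule its leaky, cation-selective junction, and *Cldn10* serves the thick ascending limb and the proximal tubule. *Cldn3*, *Cldn4*, *Cldn7* and *Cldn8* are typical of the tight distal nephron and collecting duct. In the PCK rat most cysts arise from the collecting duct.

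Expression was given as FPKM, the fragments on a gene scaled by its length and by a factor for each library, which allows genes to be ordered by level. That factor was not the plain total of reads on genes, and scaling by this total instead moved the median log2 difference of all genes between the sexes from -0.01 to -0.08. Between 13912569 and 20285911 reads fell on genes in males and between 14963924 and 19556707 in females, and 3 reads was used as the floor of detection. Markers of the proximal tubule, thick ascending limb, principal cell and intercalated cell were present in all 10 libraries. Female 2 stood apart in its mitochondrial share (26.8% of reads, from 14.3% upwards in the others) and in 5 urothelial markers, which summed to 12.8 FPKM there and to at most 0.763 FPKM in the other 9 libraries. Female 4 had the lowest sum of 3 stromal markers (50.2 FPKM) and of 4 leukocyte markers (9.39 FPKM). Counts were therefore also taken without both of these rats.

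Of the 10 claudins, *Cldn1* rose in females and no member fell past the threshold. *Cldn1* was 2.04-fold higher in females, while *Cldn3* was 1.98-fold and *Cldn2* 1.34-fold higher in males, and for each of them the ranges of males and females were separate. *Cldn4*, *Cldn7*, *Cldn8*, *Cldn10*, *Cldn12* and *Cldn15* had overlapping ranges, and *Cldn5* was listed at 0 in all 10 libraries. For the test, limma was fitted to log2(FPKM + 0.1) of all 17631 genes averaging 0.1 FPKM or more, and a gene was called when its p, adjusted by Benjamini-Hochberg over those genes, was 0.05 or less. This scale slightly understates the change of low genes. Of the 9 members tested, 1 was called higher in females, beside 1.26% of all genes tested, and 0 were called lower, beside 1.14% (2.4% in either direction). *Cldn1* also passed a log2 fold change of 1, as did 0.618% of all genes in that direction and 1.32% in either. At an unadjusted p of at most 0.05 in limma there were 3 members, *Cldn1*, *Cldn2* and *Cldn3*, against 15.7% of all genes. The same 3 were those without overlap, a property of 5.1% of all genes (2.5% higher and 2.6% lower in females). The log2 fold changes of the 9 members ran from -0.98 to 1.03 with a median of 0.00, next to a median of -0.01 over all genes tested. With females 2 and 4 both left out, 1 member was called higher (*Cldn1*) and 1 lower (*Cldn3*), beside 1.68% of all genes in either direction, and 3 members had separate ranges, beside 10.2% of all genes.

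**Figure D1:**
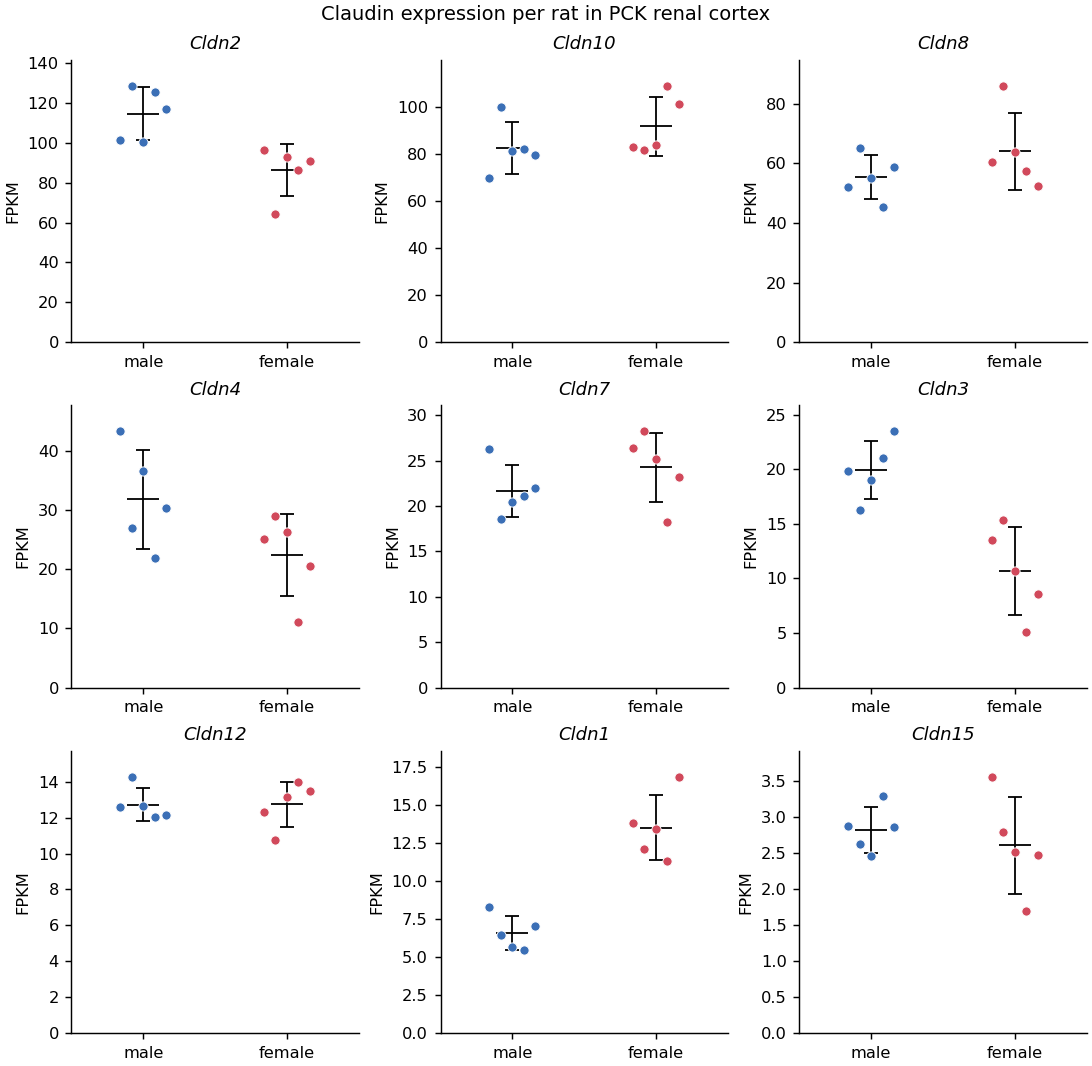
FPKM of the 9 detected claudins in each of 5 male (blue) and 5 female (red) rats, with 1 panel per gene, a vertical axis from 0, and lines for the mean and SD. Males and females are fully separated for *Cldn1* (5.44 to 8.26 against 11.3 to 16.9 FPKM), *Cldn3* and *Cldn2*, and overlap in the other panels.

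Among the pore-forming claudins, *Cldn2*, the cation and water pore of the proximal tubule, had the highest mean over all 10 rats and in males. It is ENSRNOG00000054495, on the plus strand of chromosome X from 111122552 to 111137769 in the rat build Rnor_6.0. Males had 101, 129, 100.3, 125.7 and 117 FPKM and females 96.6, 64.1, 92.9, 86.6 and 91.1 FPKM. Every female lay below every male, by a narrow gap between male 3 and female 1, and female 2 was the lowest of all. The means were 115 ± 13.3 FPKM in males and 86.3 ± 12.9 FPKM in females (SD, n = 5 each; exact permutation test of the difference in means, two-sided, p = 0.00794). That p is the smallest that 5 against 5 rats can give. In limma the log2 fold change was -0.42 with a standard error of 0.12 and an adjusted p of 0.123, which did not pass. Summed proximal tubule markers were 1366 to 2547 in males and 1342 to 2676 FPKM in females, with *Cubn* called higher in females among 6. The log2 fold changes were 0.72 for *Cubn*, 0.34 for *Slc5a2*, 0.20 for *Lrp2*, -0.03 for *Slc34a1*, -0.05 for *Hnf4a* and -0.53 for *Slc22a6*. *Slc22a6* did not pass (limma adjusted p = 0.160). Summed thin limb markers, a segment that also carries *Cldn2*, were 379 to 537 in males and 188 to 409 FPKM in females, with 0 called. Over the 10 libraries *Cldn2* followed the mean log2 level of these lists weakly (r = 0.0929 and 0.386). With the mean of each sex subtracted, r was 0.337 and -0.0394. Without that subtraction *Cldn2* ran against the mean log2 level of intercalated cells (-0.888), principal cells (-0.834), the distal convoluted tubule (-0.824) and the urothelium (-0.900). After the mean of each sex was subtracted, these 4 were -0.724, -0.635, -0.537 and -0.839, endothelium and podocyte markers were at -0.803 and -0.643 (-0.616 and -0.717 before subtraction), and female 2, lowest in *Cldn2*, was highest in urothelial markers. The part of these cell types in the *Cldn2* difference was not tested. The 587 genes tested on chromosome X had a median log2 fold change of -0.01, as did the 17005 on autosomes.

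*Cldn10*, which forms cation or anion pores according to its splice form, had the second highest mean over all 10 rats and the highest in females, 91.7 ± 12.6 FPKM (SD, n = 5). It lies on chromosome 15 from 104026601 to 104115748 (ENSRNOG00000010085). Its levels were 69.5, 100.01, 81.1, 81.9 and 79.3 FPKM in males and 82.8, 81.4, 83.9, 109 and 101 FPKM in females. Females 4 and 5 were highest, and the rest of the females lay within the male range. The difference of 0.15 on the log2 scale did not pass (limma adjusted p = 0.581). On leaving out each rat this difference was 0.09 to 0.23, and with scaling by total reads it was 0.08. Gene-level values do not tell the splice forms apart. *Cldn15*, a cation pore best known from the intestine (ENSRNOG00000001419, chromosome 12 from 22738195 to 22748860), was the lowest detected member, with 60 to 136 reads per rat. Its means were 2.82 ± 0.314 FPKM in males and 2.60 ± 0.673 FPKM in females (SD, n = 5 each; exact permutation test, p = 0.532). *Cldn12*, linked to calcium passage in the proximal tubule and gut (ENSRNOG00000039862, chromosome 4 from 25686392 to 25692547), was the steadiest member, with a coefficient of variation of 8.17% over the 10 rats. It averaged 12.7 ± 0.916 FPKM in males and 12.7 ± 1.26 FPKM in females (SD, n = 5 each; exact permutation test, p = 0.984).

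Of the 4 distal claudins, *Cldn3* had the largest log2 fold change in size. In mean FPKM, female minus male, it differed by -9.27 and *Cldn4* by -9.45. *Cldn3*, a general barrier claudin (ENSRNOG00000046007, minus strand of chromosome 12 from 21831342 to 21832813), had 19.8, 16.3, 19.0, 21.0 and 23.5 FPKM in males. Females had 13.5, 15.4, 10.7, 5.11 and 8.58 FPKM. The highest female, female 2, was just under the lowest male, male 2, and female 4 was lowest by a wide margin. Means were 19.9 ± 2.65 FPKM in males and 10.7 ± 4.05 FPKM in females (SD, n = 5 each; exact permutation test, p = 0.00794). It was counted on 133 to 637 reads per rat. The log2 fold change was -0.98 with a standard error of 0.25 and a limma adjusted p of 0.0776, just outside the threshold. On leaving out each rat the adjusted p was 0.0604 to 0.178, except without female 2, where it was 0.0343, and the log2 fold change was smallest without female 4, at -0.75.

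*Cldn4*, a distal claudin that limits sodium and favours chloride passage (ENSRNOG00000001476, chromosome 12 from 24761210 to 24763005), had 43.4, 27.0, 36.6, 21.9 and 30.4 FPKM in males. The females had 25.1, 29.0, 26.2, 11.1 and 20.6 FPKM. The groups overlapped, with males 2 and 4 inside the female range and female 4 far below the rest. The log2 fold change of -0.54 carried a standard error of 0.26 (limma adjusted p = 0.350), and the exact permutation test on FPKM gave p = 0.0952. On leaving out each rat that exact p was 0.0635 to 0.198, except without male 4, where it was 0.0317. The log2 fold change was smallest without female 4, at -0.31. *Cldn8*, the partner of *Cldn4* in collecting duct junctions, had overlapping ranges. It is ENSRNOG00000001571 on chromosome 11 from 28525643 to 28527890. Males had 52.2, 65.0, 55.1, 45.2 and 58.9 FPKM and females 60.5, 86.1, 63.9, 57.4 and 52.4 FPKM (limma adjusted p = 0.532). Female 2 was the highest rat and the others shared a common range. *Cldn7*, found along the lateral membranes of distal cells (ENSRNOG00000017325, chromosome 10 from 56576428 to 56578626), ranged from 18.6 to 26.3 in males and from 18.3 to 28.2 FPKM in females (limma adjusted p = 0.619). Thus *Cldn3* and *Cldn4* had negative and *Cldn7* and *Cldn8* positive log2 fold changes, and none of these 4 passed.

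*Cldn1* is a barrier claudin that in kidney marks the parietal epithelium of Bowman's capsule. It is ENSRNOG00000001926, on the plus strand of chromosome 11 from 77815181 to 77830416. Males had 8.26, 6.47, 5.63, 5.44 and 7.04 FPKM, and females 13.8, 12.1, 13.4, 11.3 and 16.9 FPKM. The lowest female was clearly above the highest male. Means were 6.57 ± 1.14 FPKM in males and 13.5 ± 2.14 FPKM in females (SD, n = 5 each; exact permutation test, p = 0.00794), on 268 to 886 reads per rat. The log2 fold change was 1.03 with a standard error of 0.14 (limma adjusted p = 0.00253). Over all alternatives it stayed between 0.94 and 1.16 with adjusted p from 0.00120 to 0.0112. It was below 1 with a pseudocount of 1, with scaling by total reads, and without male 3, male 4 or female 5. The sum of 4 podocyte markers, the glomerular cells beside that capsule, was 111 to 151 in males and 103 to 168 FPKM in females, with 0 markers called. Other lists also shifted in mean log2 level from males to females: intercalated cell markers by 0.54, distal convoluted tubule by 0.46, thick ascending limb by 0.38 and principal cell by 0.37. Over the 10 libraries the r of these 4 with *Cldn1* was 0.793, 0.739, 0.887 and 0.741. With the mean of each sex subtracted it was 0.189, -0.237, 0.384 and 0.246. Leukocyte markers shifted by -0.70, stroma by -0.75, and the urothelial list, near the floor outside female 2, by 1.51. After the same subtraction r was 0.309 for leukocyte and -0.209 for urothelial markers. The part of these lists in the *Cldn1* difference was not tested. The table's nearest claudin to *Cldn1* is *Cldn16*, a magnesium and calcium pore gene of the thick ascending limb, 112 kb away on the other strand with no gene listed between them. *Cldn16* averaged 17.1 FPKM in males and 18.6 FPKM in females and did not pass.

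Among the members, *Cldn1* and *Cldn3* had the largest log2 fold change in each direction. Their promoter sequences are shown so that the 2 can be set side by side. Each is the 250 bases before the gene's start in RefSeq, on the rat build GRCr8, which is not the build of the expression table. *Cldn1* is at chr11:87926126-87926375 on the plus strand and *Cldn3* at chr12:27346548-27346797 on the minus strand. Capitals mark CACCTG, an E-box bound by Snail repressors.
Cldn1: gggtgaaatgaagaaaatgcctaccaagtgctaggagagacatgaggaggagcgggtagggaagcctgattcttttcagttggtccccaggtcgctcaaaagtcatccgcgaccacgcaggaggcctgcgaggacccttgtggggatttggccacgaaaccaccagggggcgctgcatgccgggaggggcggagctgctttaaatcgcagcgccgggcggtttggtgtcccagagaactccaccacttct
Cldn3: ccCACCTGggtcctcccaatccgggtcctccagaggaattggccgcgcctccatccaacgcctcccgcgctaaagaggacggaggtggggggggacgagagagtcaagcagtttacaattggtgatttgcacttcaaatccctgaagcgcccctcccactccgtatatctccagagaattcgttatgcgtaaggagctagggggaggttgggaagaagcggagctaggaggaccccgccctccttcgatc
Both promoters had a GC content of 59.2%, with 14 CpG dinucleotides for *Cldn1* and 15 for *Cldn3*, next to medians of 51.2% and 5 over 33469 rat promoters. Of the 10 members, 8 had an entry, and *Cldn2* and *Cldn4* had none. On either strand of these 8, 4 short motifs were sought, none overlapping in its letters with another. AGAACA, a half-site of the androgen and glucocorticoid receptors, was in none of the 8 and in 17.5% of all promoters. AGGTCA, a half-site of the oestrogen receptor and other nuclear receptors, was in *Cldn7* alone and in 14.1% of all promoters. CACCTG was found 1 time for *Cldn3* and 4 times for *Cldn7*, and in 15.9% of all promoters. GTTAAT, a half-site of the tubular factor HNF1, was found for *Cldn10* and *Cldn12* and in 6.45% of all promoters. A match describes letters only and says nothing about binding.

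*Cldn5*, the claudin of endothelial junctions (ENSRNOG00000045811, minus strand of chromosome 11 from 86356294 to 86357718), was listed at 0 reads in every library, which is within the floor of 3 reads. All 8 other endothelial markers had reads in all 10 libraries and summed to 182 to 235 in males and 179 to 254 FPKM in females. The annotated span of *Cldn5* lies wholly inside that of *Cdc45*, a replication gene on the opposite strand from 86329012 to 86358453, which had 21 to 45 reads per rat. Whether the counting used strand, or discarded reads over both genes, is not given in the sources used here, so the 0 is not read as absence of the transcript.

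**Figure D2:**
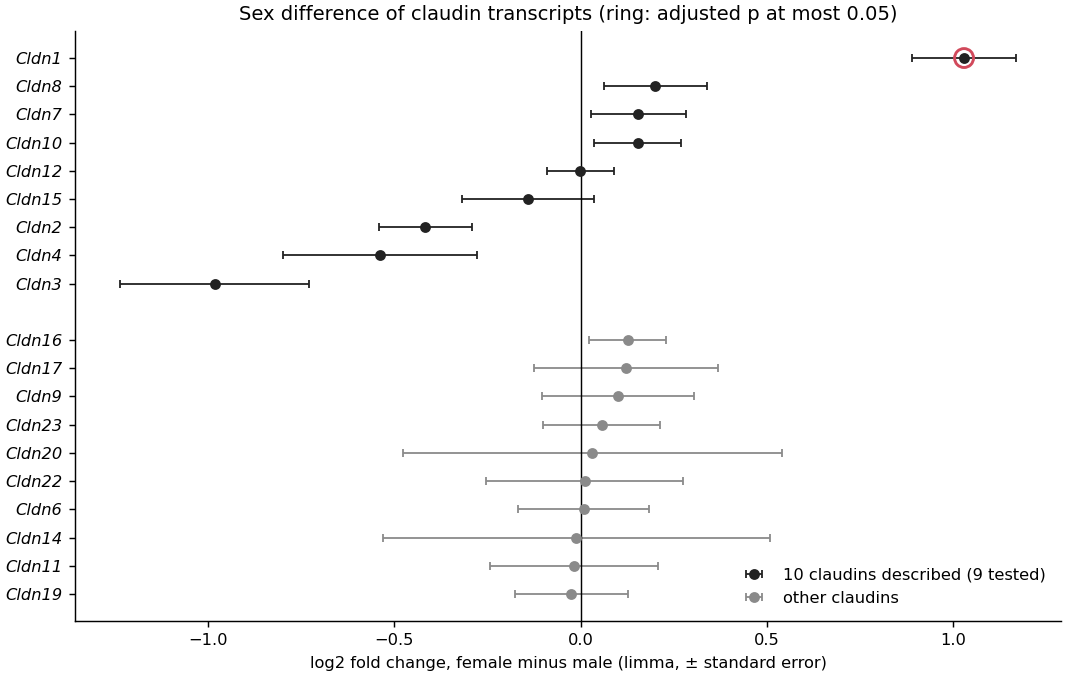
Log2 fold change, female minus male, with its standard error from limma, for the 9 tested members (black) and 10 other claudins (grey), with a ring at an adjusted p of at most 0.05. *Cldn1* at 1.03 alone carries a ring, and the other claudins lie between -0.02 and 0.13.

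The rest of the family was not called. The table held 12 other claudins, of which *Cldn18* was listed at 0 and *Cldn24* fell under the filter. The 10 tested had 0 calls in limma, beside 2.4% of all genes, 0 with an unadjusted p of at most 0.05, beside 15.7%, and a lowest adjusted p of 0.617. *Cldn19*, partner of *Cldn16* in the thick ascending limb, was the highest, with male and female means of 25.2 and 25.4 FPKM. Below it and *Cldn16*, *Cldn6* averaged 6.59 and 6.67 FPKM, and *Cldn9* 2.82 and 3.18 FPKM, in males and females. *Cldn14*, which antagonises the *Cldn16* pore, had 5 to 41 reads per rat and means of 1.09 and 1.18 FPKM. *Cldn17*, an anion pore that lies 47.3 kb from *Cldn8*, averaged 0.914 and 1.03 FPKM. *Cldn23*, *Cldn11*, *Cldn22* and *Cldn20* were each below 1 FPKM in both sexes, and *Cldn20* shares its span with *Tfb1m* on the opposite strand.

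The order of the members shifted between the sexes. By mean over 10 rats the levels ran from *Cldn2* (100.5 FPKM) through *Cldn10* (87.0), *Cldn8* (59.7), *Cldn4* (27.1), *Cldn7* (23.0), *Cldn3* (15.3), *Cldn12* (12.7) and *Cldn1* (10.03) to *Cldn15* (2.71 FPKM). Of the 8 neighbouring pairs in this order, 4 differed within libraries (exact sign-flip permutation test over 10 rats, two-sided, p at most 0.05). In this exact test these were *Cldn10* above *Cldn8* (p = 0.00391), *Cldn8* above *Cldn4* (p = 0.00195), *Cldn7* above *Cldn3* (p = 0.00586) and *Cldn1* above *Cldn15* (p = 0.00195). *Cldn2* and *Cldn10* were not separated (p = 0.119 in the exact permutation test), nor were *Cldn4* and *Cldn7* (p = 0.285), *Cldn3* and *Cldn12* (p = 0.559), or *Cldn12* and *Cldn1* (p = 0.0547). *Cldn2* exceeded *Cldn10* in 5 of 5 males, by 0.31 to 0.62 on the log2 scale, and in 2 of 5 females, where the log2 ratio ran from -0.35 to 0.22. This ratio differed between the sexes (exact permutation test, p = 0.00794). Of the 8 pairs tested this way, 7 had a p of at most 0.05, the exception being *Cldn10* and *Cldn8* (p = 0.794 in the exact test). These p are unadjusted, and neighbouring pairs share a member, so that *Cldn1*, *Cldn2* or *Cldn3* enters 5 of the 7. In females 4 and 5 the highest member was *Cldn10*, and in female 2 it was *Cldn8*. *Cldn12* exceeded *Cldn1* in all males, by 0.61 to 1.16 on the log2 scale, and the ratio spread around 0 in females, from -0.32 to 0.31 (exact permutation test of the sexes, p = 0.00794). *Cldn1* was the eighth of 9 in every male and sixth or seventh in every female.

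**Figure D3:**
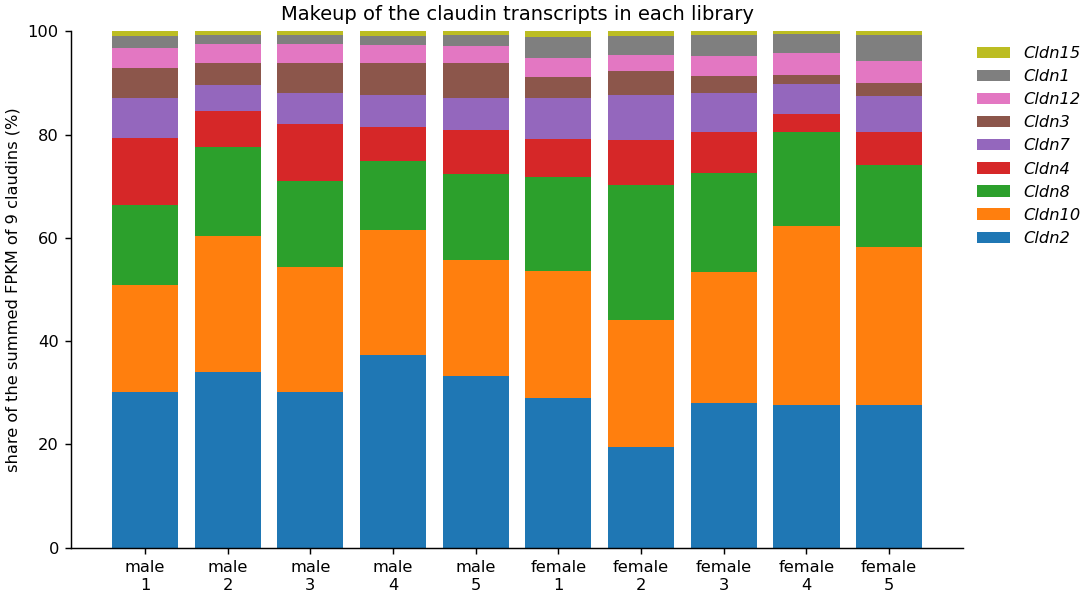
Stacked share of each claudin, in percent of the summed FPKM of the 9 detected members, for each of the 10 libraries. *Cldn2* takes 30.1% to 37.2% in males and 19.4% to 28.9% in females, and *Cldn1* 1.61% to 2.46% in males and 3.59% to 5.11% in females.

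Each member was also expressed as a share of the summed claudin FPKM. The sum itself was 333 to 379 in males and 314 to 335 FPKM in females. *Cldn2* supplied 30.1% to 37.2% of it in males and 19.4% to 28.9% in females. *Cldn3* supplied 4.29% to 6.65% in males and 1.62% to 4.66% in females, so that on this scale its groups overlapped. *Cldn10* took 20.7% to 26.4% in males and 24.7% to 34.6% in females, and *Cldn8* 13.4% to 17.2% and 15.9% to 26.1%. Shares are tied to one another, since a lower *Cldn2* raises all the others.

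Bulk tissue does not tell fewer cells of a type from less RNA per cell. For this reason 6 members were also set against markers of a segment each is known from. The ratio is the log2 of a claudin's FPKM over the geometric mean of the marker list in the same library. Against 6 principal cell markers, *Cldn3* gave -0.36 ± 0.33 in males and -1.72 ± 0.66 in females (SD of log2 ratios, n = 5 each; exact permutation test, p = 0.00794), without overlap. *Cldn4* gave 0.29 ± 0.22 in males and -0.62 ± 0.57 in females (exact permutation test, n = 5 each, p = 0.00794). Its male range of -0.04 to 0.46 and its female range of -1.58 to -0.16 were separate, although its FPKM overlapped. Across the 10 libraries *Cldn3* did not follow the mean log2 level of these markers (r = -0.605, and -0.101 with the mean of each sex subtracted). *Cldn4* gave r = -0.146 and 0.429. The mean log2 level of the principal cell markers was itself 0.37 higher in females (5.03 against 4.66), which is part of both ratio differences. Their sum overlapped, at 182 to 275 in males and 218 to 309 FPKM in females, and 1 of 6 principal cell markers, the vasopressin receptor *Avpr2*, rose in females (limma adjusted p = 0.0469). Markers of the other distal cells overlapped but reached higher in females, with sums of 126.06 to 206 in males against 187 to 272 FPKM for the distal convoluted tubule (*Wnk1* called higher, *Pvalb* listed at 0) and 130 to 203 against 191 to 267 FPKM for intercalated cells (*Atp6v0d2* called higher), and their part in these ratios was not tested. *Cldn7* (difference of -0.21, p = 0.167) and *Cldn8* (-0.17, p = 0.373) did not pass the exact permutation test. On leaving out each rat *Cldn7* differed by -0.30 to -0.10 and passed that exact test in 1 fit (p = 0.0397). *Cldn8* differed by -0.28 to -0.08 and passed in none. *Cldn10* against 6 thick ascending limb markers, among them *Cldn16* and *Cldn19*, differed by -0.22 (p = 0.159, exact permutation test). These markers summed to 1136 to 1674 in males and 1274 to 1899 FPKM in females, and *Kcnj1* and *Egf* among them were called higher in females. Over the 10 libraries *Cldn10* had r = 0.380 with their mean log2 level and 0.550 with that of proximal tubule markers. With the mean of each sex subtracted these were 0.0406 and 0.534. No ratio of *Cldn10* to proximal markers was taken. *Cldn2* against 6 proximal markers differed by -0.53 (exact permutation test, p = 0.0476), and this was lost in 8 of the 10 fits that left out 1 rat, all but those without male 3 or female 1, with p up to 0.0952. No ratio was adjusted for the 6 tests.

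**Figure D4:**
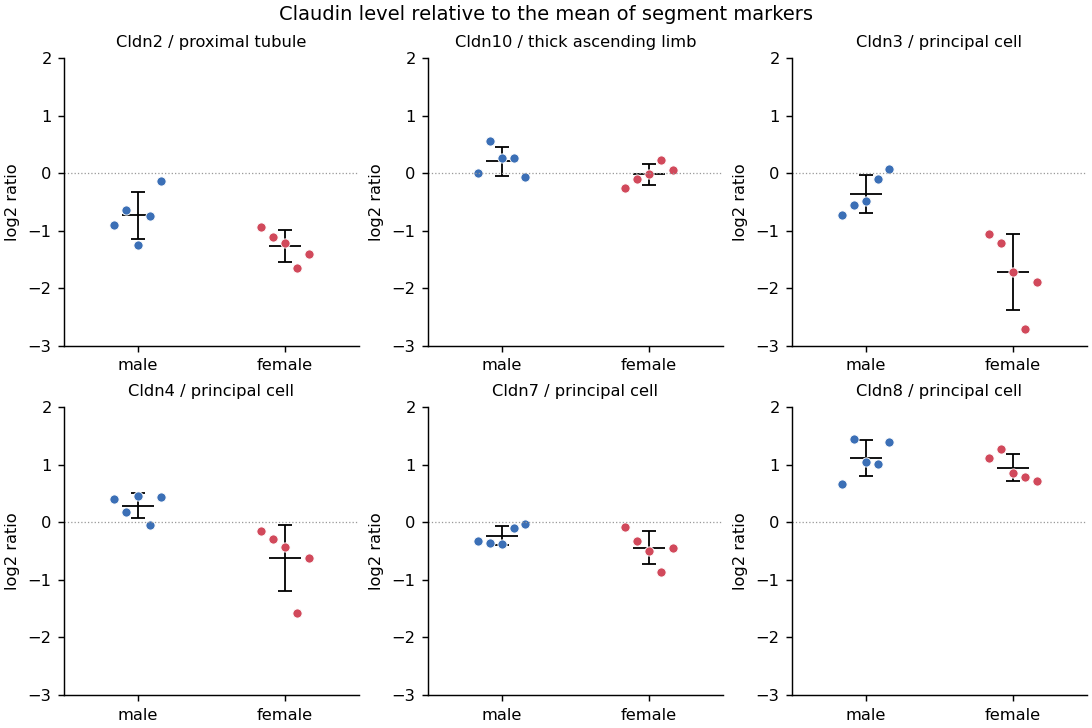
Log2 ratio of a claudin to the geometric mean of markers of a segment it is known from, in each of 5 males (blue) and 5 females (red). Lines give mean and SD, a dotted line marks 0, and all 6 panels share the same vertical scale. *Cldn3* and *Cldn4* over principal cell markers are separated between the sexes, with female 4 lowest in both (-2.71 and -1.58).

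Markers of several other cell types moved with *Cldn3* and *Cldn4*. The 3 stromal markers *Pdgfrb*, *Col1a1* and *Dcn*, all with reads in every library, summed to 154 to 230 in males and 50.2 to 177 FPKM in females. Their median log2 fold change was -0.80, and 0 of 3 were called (lowest limma adjusted p = 0.0821). Across the 10 libraries the mean log2 level of these markers correlated with *Cldn3* at r = 0.951 and with *Cldn4* at r = 0.912. After the mean of each sex was subtracted, r was 0.892 for *Cldn3*, 0.900 for *Cldn4* and 0.894 for *Cldn7*. For *Cldn7* it was 0.296 without that subtraction. The 4 leukocyte markers, at 22.2 to 36.1 in males and 9.39 to 40.4 FPKM in females, correlated with *Cldn3* at r = 0.825 over all libraries and 0.825 after subtraction. Thin limb markers followed *Cldn3* about as closely (r = 0.854 over all libraries and 0.810 after subtraction), and proximal tubule markers ran against it (-0.620 and -0.776). *Cldn1* did not follow the stromal markers in this way, with r = -0.599 over all libraries and 0.301 after subtraction. These are descriptions over 10 libraries that share the sex groups and the low values of female 4. The part of these cell types in the *Cldn3* and *Cldn4* differences was not tested.

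Several members also varied together. With the mean of each sex subtracted and both sexes pooled, *Cldn4* and *Cldn7* had r = 0.861, *Cldn3* and *Cldn15* 0.849, *Cldn3* and *Cldn7* 0.843, and *Cldn3* and *Cldn4* 0.747 over 10 libraries. *Cldn10* ran the other way, with r = -0.923 for *Cldn7*, -0.779 for *Cldn4* and -0.776 for *Cldn3*, and varied with *Cldn12* (0.738). Female 4, lowest in *Cldn3*, *Cldn4*, *Cldn7* and *Cldn15* and highest in *Cldn10*, enters these values. Among 13363 genes averaging 1 FPKM or more, those most like *Cldn3* on this measure were *Lcn2* (0.992), *Ncam1* (0.980) and *Tpm1* (0.979). *Lcn2*, which encodes a tubular injury marker, had 52.1, 41.7, 49.9, 84.6 and 93.3 FPKM in males and 58.5, 83.9, 33.9, 5.85 and 20.8 FPKM in females, and it too was lowest in female 4. Its log2 fold change of -1.08 did not pass (limma adjusted p = 0.433). Most like *Cldn4* were *Efemp2*, *U2* and *Pim1* (0.951 to 0.968), and most like *Cldn7* were *Mfsd7b*, *Hip1* and *Prr7* (0.971 to 0.978). *Cldn15* was nearest to *Slc34a2*, *PVR* and *Il19* (0.954 to 0.962). For *Cldn2* they were *Klhdc4*, *Rad51c* and *Bad* (0.942 to 0.968), and for *Cldn10* *Stxbp3*, *Syce2* and *Nicn1* (0.962 to 0.970). *Cldn8* varied with *Glrx*, *Meis1* and *Fgfr1op2* (0.921 to 0.948), *Cldn12* with *Tvp23b*, *Fam69a* and *Ube3c* (0.975 to 0.982), and *Cldn1* with *Agfg2*, *RT1-DMb* and *Pde2a* (0.906 to 0.948). With 10 libraries and so many genes searched, values of this size say little about any 1 pair.

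Beyond the claudins, other tight junction components were read from a list of 34 symbols, 32 of which were in the table and tested. In limma 1 was called higher in females and 0 lower, against 1.26% and 1.14% of all genes, and 7 of 32 had an unadjusted p of at most 0.05, against 15.7% of all genes. Log2 fold changes were positive for 23 and negative for 9, with a median of 0.10, while over all genes tested 8599 were positive and 9032 negative. The tubular marker lists that were higher in females and the stromal list that was lower, given above beside *Cldn1*, shifted alongside this list. Their part was not tested. The called gene was *Marveld2*, which encodes tricellulin, the protein of 3-cell corners. It had 5.84, 4.99, 6.23, 7.26 and 6.11 FPKM in males and 9.59, 8.65, 8.15, 8.45 and 10.3 FPKM in females, with no overlap. Its log2 fold change was 0.57 with a standard error of 0.11 (limma adjusted p = 0.0226). The call was lost on leaving out males 1, 2 or 3 or females 1 or 5, with adjusted p of 0.0526 to 0.0659. *Ildr1*, which brings tricellulin to those corners, averaged 10.98 ± 1.29 FPKM in males and 15.5 ± 2.01 FPKM in females (SD, n = 5 each) and fell just short in limma (adjusted p = 0.0542). On leaving out each rat its adjusted p was 0.0646 to 0.128, except without female 1, where it was 0.0205, and it was 0.197 without females 2 and 4. *Prkcz*, a polarity kinase, averaged 13.7 and 18.2 FPKM in males and females (limma adjusted p = 0.0747). Its adjusted p was 0.0628 to 0.181 on leaving out each rat, except without female 2, where it was 0.0174. *Ocln*, occludin, ranged from 15.3 to 18.9 in males and 18.2 to 23.2 FPKM in females (adjusted p = 0.136 in limma). *Igsf5*, a junctional adhesion molecule, averaged 18.2 FPKM in males and 21.1 FPKM in females (adjusted p = 0.189 in limma).

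**Figure D5:**
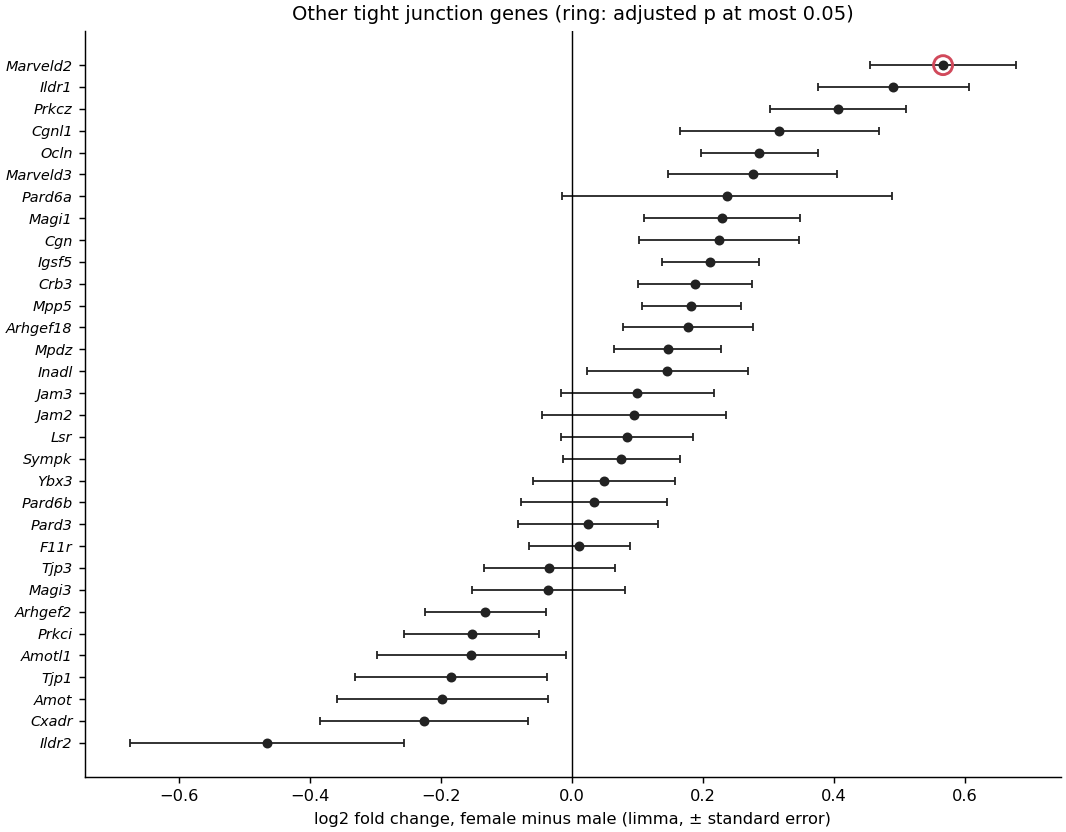
Log2 fold change, female minus male, with its standard error from limma, for the 32 other tight junction genes, with a ring at an adjusted p of at most 0.05. *Marveld2* at 0.57 is the one ringed gene, 23 genes lie to the right of 0 and 9 to the left.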

How the data were processed

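Poly-A RNA-seq libraries of 5 male and 5 female PCK rats were analysed, grouped by the sex in the labels, with 1 library per rat. Per the labels and the paper, Novogene cleaned the reads with fastp, mapped them to the Ensembl build Rnor_6.0 with HISAT2 (2.0.5), and the processing notes also name featureCounts (1.5.0-p3) and StringTie (1.3.3b). The authors deposited FPKM per gene, with gene lengths and positions. No per-sample column was left out. Dividing each FPKM by the worth of 1 read gave whole reads for 100% of values (tolerance 0.01), from which depth and the floor of 3 reads came. That floor covers counting error only, as PCR copies were not marked by molecular identifiers.

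FPKM are not counts, so limma 3.58.1 (lmFit, eBayes with trend; R 4.3.3) on log2(FPKM + 0.1) was the test, over genes averaging 0.1 FPKM or more, with Benjamini-Hochberg adjustment over all of them. Single genes, order and marker ratios had exact permutation tests (Python 3.11.15, numpy 2.4.6, pandas 2.3.3, scipy 1.17.1). Of 200 genes changed 4-fold in simulated data of 17368 genes, limma recovered 89%, and it called 11 of 17168 unchanged genes. The simulation gave every gene the same relative spread between rats and held no outlying rat. It therefore does not give the power for smaller changes such as those of the claudins. The authors tested all genes with DESeq2 on counts, which were not used here.

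The members, gene lists and motifs were chosen with earlier results of these data known. The genes named are the members, every other claudin, the called tight junction genes filled up to 5 by the lowest p, marker lists by their sums, genes overlapping a member and the 3 genes most correlated with each member of at least 1 FPKM. Single markers were named outside that rule, after their values were seen. A further gene first on the tight junction list is not reported here, and the counts are without it. The test of neighbour ratios between the sexes, the motif search and the fits without females 2 and 4 were added after the data were seen. *Patj* and *Pals1* were not found under those symbols, and *Inadl* and *Mpp5*, their older symbols, were. Alternatives were other pseudocounts (1 and 0.01), all genes with a read, only genes averaging 1 FPKM or more, quantile normalization, scaling by total reads, limma-voom on the recovered reads, the replicate number as a block, both thresholds together and leaving out each library in turn.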

Additional observations from a re-analysis of the deposited data

Results flagged for a closer look

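Within each sex, the gap between an extreme rat and the nearest other was compared with the whole range of the 5 rats by Dixon's ratio, with a critical value of 0.71. Of 82 groups tested, 4 held such a rat, and chance gives about 1 in 20 groups. *Cldn12* was 14.3 FPKM in male 2, where the next male had 12.6 FPKM (ratio 0.734). *Ocln* was 18.9 FPKM in male 5, where the next male had 16.3 FPKM (ratio 0.723). The summed thick ascending limb markers reached 1674 FPKM in male 5, above 1196 FPKM in the next male (ratio 0.889). The summed urothelial markers reached 12.8 FPKM in female 2, above 0.763 FPKM in the next female (ratio 0.969). In that library all 5 urothelial markers had reads (18 to 67 each), while *Upk3a* was at 0 in the other 9. No member of the claudins exceeded the critical value in female 2 or female 4.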

How the results depend on the processing

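The call of *Cldn1* and its direction held under every alternative run, and the number of members with separate ranges was 3 wherever it was recounted. The number of members called lower in females was 0, and became 1 with quantile normalization (*Cldn2*, log2 fold change -0.48, adjusted p = 0.0436 in limma), with limma-voom (*Cldn3*, -1.01, adjusted p = 0.0403) and without females 2 and 4 (*Cldn3*, adjusted p = 0.0318). Leaving out each rat gave 0 to 1, with 1 only without female 2. Calls over all genes were 2.4%, and 2.5%, 2.86%, 1.68% and 3.13% under these 4 alternatives. The number of other tight junction genes called higher was 1. It was 0 with both thresholds, with scaling by total reads and without females 2 and 4, 2 with the filter at a mean of 1 FPKM and 2 with limma-voom, and 0 to 2 on leaving out each rat. On leaving out each rat, the number of separate neighbours in the order was 4 to 5 (4 with all rats) and the number of marker ratios past the exact test 2 to 4 (3 with all rats). The sign of the difference in mean FPKM of *Cldn12* turned from 0.0177 to -0.627 FPKM with scaling by total reads and ran from -0.288 to 0.516 FPKM on leaving out each rat; its log2 fold change ran from -0.0354 to 0.0582 there and was 0.0322 without females 2 and 4. For *Cldn15* the difference ran from -0.453 to 0.0141 FPKM on leaving out each rat, and without females 2 and 4 it was 0.0276 FPKM, or 0.00024 on the log2 scale. None of these differences passed a test, and the cause of the changes was not tested.

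Replicate numbers recur in both sexes, but same-numbered rats did not deviate together (r = -0.140, -0.159, 0.156, 0.0693 and -0.0196 over genes), and not every rat correlated best with its own number, so the rats share only a number. With the replicate block, 1 member was called higher and 0 lower, the count of other tight junction genes was 0, and calls over all genes went from 424 to 231. In the exact test with swaps within numbers, *Cldn1*, *Cldn2* and *Cldn3* each gave p = 0.0625, the smallest it allows. Scaling by total reads moved the median of all genes to -0.08. Reads were few for *Cldn14* (5 to 41 per rat), *Cldn22* (4 to 13) and *Cldn20* (0 to 7), and with 5 rats a sex, misses at the threshold do not show that levels are equal.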
